A study of Mus musculus with 8 samples.

Results

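The genes described here are Emb, Bsg and Nptn, which encode the membrane glycoproteins embigin, basigin and neuroplastin, and Slc16a1, Slc16a3, Slc16a6, Slc16a7 and Slc16a13, which encode monocarboxylate transporters. They are 8 of the 55414 genes in the count table and were found by their symbols, each of which matched 1 identifier. They were followed in 8 RNA libraries from mouse colon, 4 of the genotype Emb knockdown and 4 of the genotype WT, all from animals aged 4 weeks. Cells labelled as enteric neurons, which form the nerve plexuses of the gut, were dissociated, stained for CD24 and CD56, sorted by flow cytometry into lysis buffer at about 250 cells per tube, and made into libraries with a Smart-seq kit, which amplifies RNA from very small inputs. The sources used here do not say how the knockdown was made, in which cells it acts, what the strain was, or whether each tube held the cells of 1 mouse. The p-values therefore measure the spread between libraries, part of which may be technical, and fewer cells of a type cannot be told apart from less RNA per cell. The title names the development of these neurons as the question.

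Monocarboxylate transporters carry lactate, pyruvate and ketone bodies across the plasma membrane together with protons. Several of them reach the cell surface only in a complex with a chaperone of the immunoglobulin superfamily: basigin is the usual partner of MCT1 (Slc16a1) and MCT4 (Slc16a3), and embigin of MCT2 (Slc16a7). Neuroplastin, best known as a synaptic adhesion molecule and as a subunit of plasma membrane calcium pumps, is the remaining member of that chaperone family. In nervous tissue glia are known for releasing lactate and neurons for taking it up, largely through MCT2.

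The 3 chaperones are related most plainly in the stretch that crosses the membrane, where each has a glutamate, an unusual residue in a hydrophobic span. The coding sequence of that stretch is shown for each, to let the family be seen at the level of the transcripts that were counted. Each is 75 bases of the longest complete coding transcript in GENCODE release M21 (build GRCm38), written 5′ to 3′ and aligned on the glutamate codon, which stands in capitals.
Emb: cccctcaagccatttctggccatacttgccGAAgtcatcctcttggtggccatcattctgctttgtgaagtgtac
Bsg: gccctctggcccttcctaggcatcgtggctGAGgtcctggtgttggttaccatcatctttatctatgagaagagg
Nptn: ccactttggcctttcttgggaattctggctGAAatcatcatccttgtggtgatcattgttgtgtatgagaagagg
Of these 75 bases, 45 were identical between Emb and Bsg, 46 between Emb and Nptn, and 50 between Bsg and Nptn. At 95% identity over at least 100 bases, none of the 8 genes matched another of them, and Bsg, Slc16a1, Slc16a3 and Slc16a13 matched no other gene. Emb also matched Gm7075 over 391 bases, Gm12362 over 341 and Rnf7 over 326, so its counts are uncertain where the counting could split reads. By the annotation all 8 are protein-coding. Bsg lies on chromosome 10 (79704491 to 79711969, plus strand), Nptn on chromosome 9 (58582240 to 58657955, plus), Slc16a1 on chromosome 3 (104638668 to 104658462, plus) and Slc16a7 on chromosome 10 (125219270 to 125389465, minus). Slc16a3 (120948480 to 120960868, plus) and Slc16a13 (70216789 to 70221064, minus) lie on chromosome 11. Emb (ENSMUSG00000021728; GRCm38 chromosome 13, 117208536 to 117274415, plus strand) shared 686 exonic bases with Gm17509 on the opposite strand, and Slc16a6 (chromosome 11, 109450855 to 109473598, minus strand) shared 1052 with Amz2. Gm17509 held 6 counts over the Emb knockdown libraries and 6 over WT, and Amz2 held 62 and 54. With the strand setting unknown, reads of such partners cannot be told apart, which leaves Slc16a6 the less certain of this pair.

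The libraries of the genotypes differed beyond these genes. Total counts ran from 2024372 to 2712754 in Emb knockdown and from 698930 to 954191 in WT, and the ribosomal RNA gene Rn18s-rs5 took 29.2% to 42.5% and 3.55% to 12.999% of them. Of 18 markers of enteric neurons 9 had enough counts to be tested, and the 18 together summed to 384 to 666 CPM scaled by TMM factors (TMM CPM) in Emb knockdown and 300.0 to 500.3 in WT. The 10 markers of enteric glia summed to 20328 to 29198 and 19132 to 54806 TMM CPM. The neuronal transcript Snap25 lay at 0.0865 to 0.965 times a background of olfactory and pheromone receptor genes in Emb knockdown and 0.115 to 1.46 times in WT, while Elavl3, which encodes a neuronal RNA-binding protein, lay at 8.81 to 16.7 and 14.8 to 25.8 times. The label of neurons therefore rests on some of its markers and not on others, and the summed glial markers were far higher than the summed neuronal ones in every library. Markers of macrophages summed to 4778 to 7084 and 2936 to 9121 TMM CPM, of endothelium to 213 to 1473 and 374 to 2087, of fibroblasts to 347 to 591 and 264 to 545, of epithelium to 145 to 269 and 238 to 352, of lymphocytes to 96.5 to 143 and 72.0 to 174, of muscle and interstitial cells of Cajal to 63.8 to 96.0 and 74.6 to 133, and of erythroid cells to 7.42 to 12.0 and 1.29 to 594. Within these sums, single markers lay in opposite directions. Of 12 macrophage and dendritic cell markers 11 were tested and 0 passed the adjusted p. An unadjusted edgeR p under 0.05 was reached by 7, against 13.3% of all 11353 genes tested. The groups did not overlap in 6, with 4 higher and 2 lower in Emb knockdown. Over all genes tested they did not overlap in 8.28%, with 4.03% higher and 4.25% lower. C1qa, a complement subunit, averaged 3937 ± 999 TMM CPM in Emb knockdown and 1485 ± 763 in WT, whereas Itgam, an integrin of myeloid cells, averaged 393 ± 232 and 3800 ± 1990 (SD, n = 4 each). Of the other markers tested, the groups did not overlap in 2 of 9 for enteric neurons (1 higher, 1 lower) and 0 of 7 for glia. They did not overlap in 1 of 7 for fibroblasts (higher) and 1 of 8 for epithelium (lower). For lymphocytes it was 0 of 6, for endothelium 0 of 6, and for muscle and interstitial cells of Cajal 0 of 4. No erythroid marker was tested. With so few markers per list, these counts are to be read beside the 8.28% of all genes tested. The part of these cells in the values below, the separation of Slc16a7 included, was not tested.

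Emb, the targeted gene, was counted few times in every library. Its level was 3.33, 13.3, 1.62 and 3.13 TMM CPM in Emb knockdown replicates 1 to 4, against 5.15, 6.90, 16.7 and 22.5 TMM CPM in WT replicates 1 to 4. Of the Emb knockdown libraries 3 lay below every WT library, and Emb knockdown replicate 2 lay within the WT range. The mean was 5.33 ± 5.33 TMM CPM in Emb knockdown and 12.8 ± 8.22 in WT (SD, n = 4 each; exact two-sided permutation p = 0.171), and edgeR estimated a log2 fold change of -1.24 ± 0.82 (SE), with a 95% interval of -3.03 to 0.55 (adjusted p = 0.529). The difference did not pass the threshold, and the interval includes 0. Since the method of knockdown is not stated, it is not known whether the counted exons of Emb would report it, so these values do not check the label.

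Depth and scaling bear on Emb because its counts are small. The 4 Emb knockdown libraries held 38 counts of it in all and the WT libraries 48, although the Emb knockdown libraries were sequenced deeper. After 1 random thinning of every library to 698930 counts, Emb had 2, 7, 1 and 2 counts in Emb knockdown and 4, 5, 14 and 16 in WT. The highest Emb knockdown library then still exceeded the lower pair of WT libraries. Leaving out Emb knockdown replicate 2 took the log2 fold change to -2.23 (edgeR adjusted p = 0.368), and the estimate was negative in all 18 alternative settings, from -2.23 to -0.60.

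Bsg, whose product is the widespread partner of MCT1 and MCT4, had the least even values of the 3 chaperones in Emb knockdown. It stood at 39.3, 3.18, 4.32 and 0.627 TMM CPM in Emb knockdown and at 1.29, 21.8, 25.1 and 2.81 TMM CPM in WT. The groups overlapped throughout, with 1 high library in Emb knockdown and a high and a low pair in WT. The mean was 11.9 ± 18.4 TMM CPM in Emb knockdown and 12.8 ± 12.5 in WT (SD, n = 4 each; exact permutation p = 0.914). Bsg did not have counts enough in enough libraries for the filtered fit; without the filter its log2 fold change was 0.12 (95% interval -1.70 to 1.94; edgeR adjusted p = 0.972), and -2.003 when Emb knockdown replicate 1, which held 79.7% of the Bsg counts of its group, was also left out (edgeR adjusted p = 0.589).

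Nptn, the neuroplastin gene, stood at 5.33, 15.4, 12.97 and 3.76 TMM CPM in Emb knockdown and at 2.57, 1.15, 26.6 and 2.81 TMM CPM in WT. Each Emb knockdown library lay above 3 of the WT libraries and below WT replicate 3, which held 87.5% of the WT counts. The mean was 9.36 ± 5.68 TMM CPM in Emb knockdown and 8.29 ± 12.2 in WT (SD, n = 4 each; exact permutation p = 0.800). Nptn also missed the filter; without it the log2 fold change was 0.35 (95% interval -1.64 to 2.35; edgeR adjusted p = 0.928).

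Slc16a7, which encodes the high-affinity lactate and pyruvate importer MCT2, was the steadiest of the 8 genes, with no allowance for counting error. It stood at 58.0, 35.5, 46.5 and 31.95 TMM CPM in Emb knockdown, against 28.3, 17.2, 13.7 and 18.3 TMM CPM in WT. All 4 Emb knockdown libraries lay above all 4 WT libraries. The mean was 43.0 ± 11.7 TMM CPM in Emb knockdown and 19.4 ± 6.27 in WT (SD, n = 4 each; exact two-sided permutation p = 0.0286, the smallest that 4 against 4 allows, not adjusted for the 8 genes). Over all genes edgeR gave a log2 fold change of 1.15 ± 0.54 (SE), with a 95% interval of -0.03 to 2.33 (adjusted p = 0.379), so Slc16a7 did not pass the threshold.

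Read against the whole table, the separation of Slc16a7 is not rare. Over all 11353 genes tested, the groups did not overlap in 8.28%, with the Emb knockdown libraries the higher ones in 4.03% and the lower ones in 4.25%. Among the 5 members tested Slc16a7 was the only such gene. The order of the libraries also turned on the scaling: scaled by library totals alone (CPM), Slc16a7 stood at 32.6, 24.7, 42.5 and 23.3 in Emb knockdown and at 30.0, 17.7, 18.9 and 18.6 in WT, and the groups overlapped. Per exonic kilobase it lay at 2.53 to 5.75 times the receptor-gene background in Emb knockdown and 0.753 to 1.40 times in WT, so in WT it was close to that background. Of its opposite-strand neighbours, Gm47862, which shares 179 exonic bases with it, held 5 and 2 counts.

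Slc16a1, the gene of MCT1, the transporter of most tissues, owed its large average to a single library. It stood at 542, 23.3, 5.94 and 10.7 TMM CPM in Emb knockdown and at 10.3, 10.3, 2.28 and 19.7 TMM CPM in WT. Emb knockdown replicate 1 held 814 of the 886 counts of its group, and the other 3 Emb knockdown libraries overlapped with WT. With all libraries edgeR gave a log2 fold change of 3.78 ± 1.42 (SE), with a 95% interval of 0.66 to 6.90 (adjusted p = 0.320). Leaving out Emb knockdown replicate 1 took it to 0.34 (edgeR adjusted p = 0.921). Without a filter on low counts Slc16a1 did pass (log2 fold change 4.08, edgeR adjusted p = 0.00326), in a fit that called 910 of 48530 genes. Slc16a1 no longer passed when Emb knockdown replicate 1 was left out of that fit as well (0.60, edgeR adjusted p = 0.875). Emb knockdown replicate 1 was also the library with the most Bsg, at 39.3 TMM CPM. Its summed markers of endothelium (355 TMM CPM), epithelium (243) and erythroid cells (12.0) lay below those of at least 1 WT library. So did those of glia (25458.5), macrophages (7084), lymphocytes (143) and muscle and interstitial cells of Cajal (88.6). The sums for enteric neurons (666, against 661 in Emb knockdown replicate 2) and for fibroblasts (591) were the highest of the 8. Single genes weighed on both: Uchl1 had 490 of its 756 Emb knockdown counts in replicate 1, and Col1a1 517 of 1005. The part of these cells in the Slc16a1 value was not tested.

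Slc16a3, the gene of MCT4, a lactate exporter of glycolytic cells, was at 6.00, 27.6, 1.62 and 3.76 TMM CPM in Emb knockdown and at 9.01, 4.598, 13.7 and 4.22 TMM CPM in WT. The groups overlapped, and Emb knockdown replicate 2 held 74.3% of the counts of its group. Slc16a3 missed the filter; without it the log2 fold change was 0.54 (95% interval -1.47 to 2.55; edgeR adjusted p = 0.875).

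Slc16a6, the gene of MCT7, known from zebrafish liver as an exporter of ketone bodies, was at 17.3, 2.65, 12.4 and 11.3 TMM CPM in Emb knockdown and at 43.7, 6.90, 9.13 and 8.43 TMM CPM in WT. WT replicate 1 stood apart from the other 3 WT libraries, which the Emb knockdown libraries straddled. The log2 fold change was -0.63 ± 0.81 (SE; edgeR adjusted p = 0.773) and turned to 0.41 without WT replicate 1 and to 0.06 when libraries were scaled to the receptor genes.

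Slc16a13, the gene of MCT13, a transporter known from mouse liver to carry lactate, was at 6.66, 2.12, 20.0 and 0 TMM CPM in Emb knockdown and at 11.6, 62.1, 15.98 and 0 TMM CPM in WT. It went uncounted in replicate 4 of either genotype, where a count of 0 allows up to 1.88 TMM CPM in Emb knockdown and 4.22 in WT (3 counts, counting error only). The log2 fold change was -1.62 ± 1.27 (SE; edgeR adjusted p = 0.600), and -0.38 without WT replicate 2, which held 64.3% of the WT counts. The groups overlapped in every one of these 3 transporters.

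**Figure D1:**
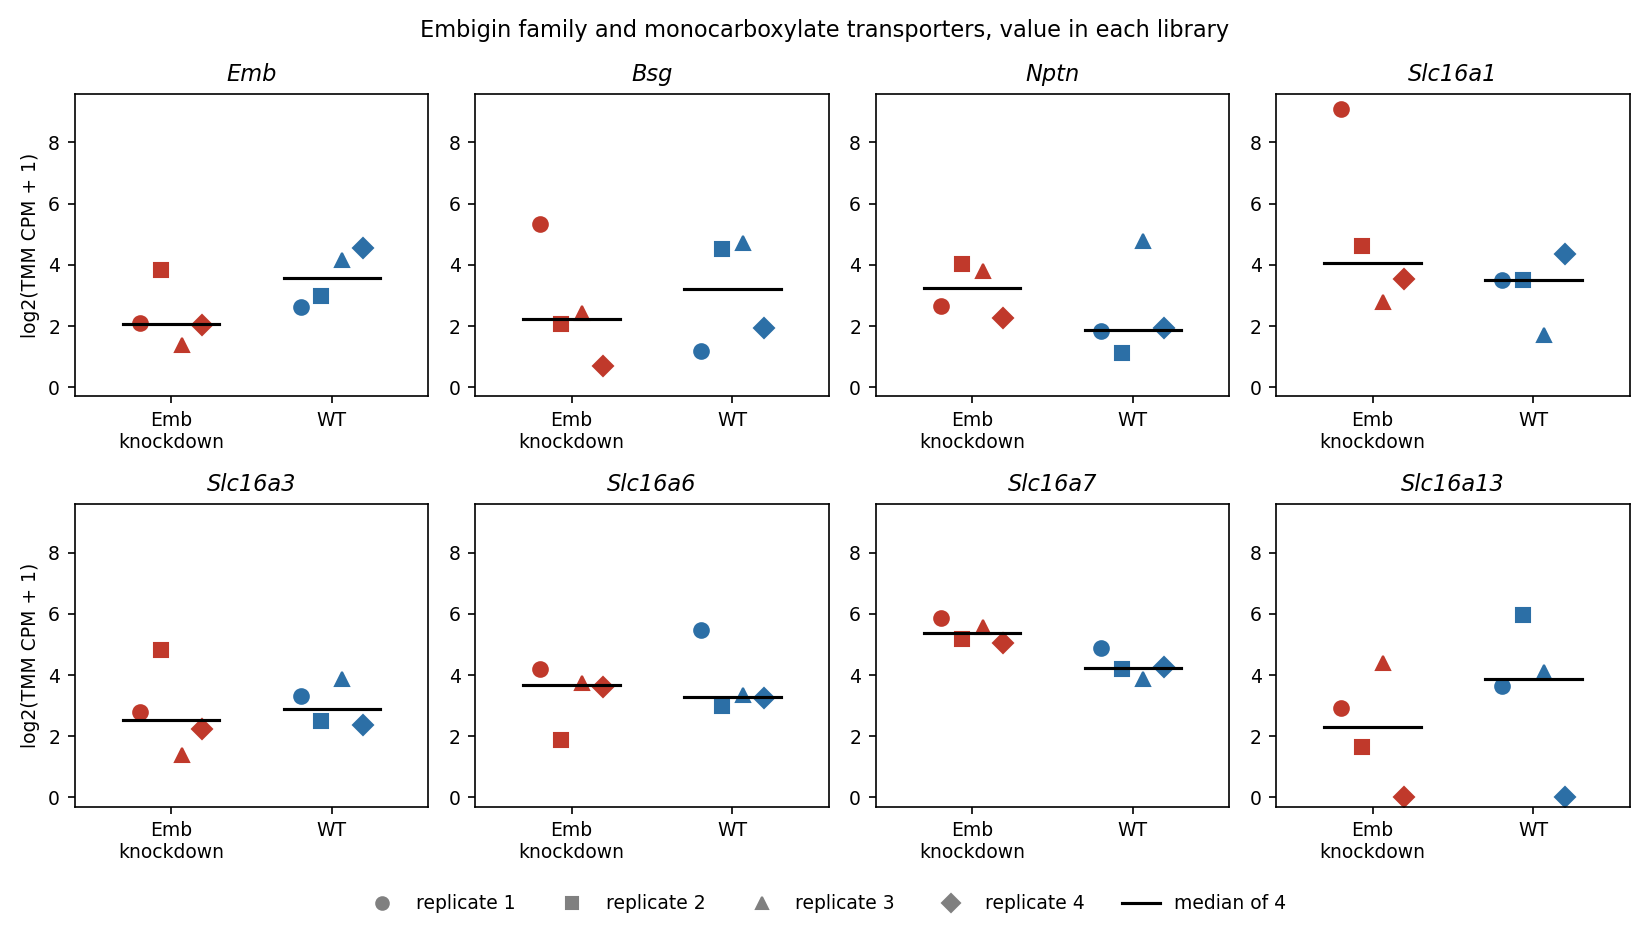
Level of each of the 8 genes in each library, as log2 of TMM CPM plus 1 on the vertical axis, with Emb knockdown libraries left and WT libraries right in each panel; symbols mark the replicate number, which only names a library, and lines mark the median of 4. Slc16a7 is the panel in which all 4 Emb knockdown libraries lie above all 4 WT libraries; in Slc16a1 a single Emb knockdown library stands at 542 TMM CPM, above 23.3 in the next.

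None of the 8 genes passed the adjusted p of 0.05 where the filter on low counts was kept. By edgeR 0 of 11353 genes did, which is 0%, and an unadjusted p under 0.05 was reached by 1508 genes (13.3%), of which 981 were higher in Emb knockdown (8.64% of all tested) and 527 lower (4.64%). Of the 5 members tested by edgeR, Slc16a1 alone was among the 1508. DESeq2, run without that filter, called 401 of 47226 genes with a p-value. Of the 8 it gave an adjusted p for Slc16a7 alone, which did not pass. By limma voom 0 genes were called. The 8 genes passed the filter unevenly: 1 of the 3 chaperones and 4 of the 5 transporters were tested, and Bsg, Nptn and Slc16a3 were not. The scaling moved all genes together, with a median log2 fold change of 0.04 with TMM factors, -0.67 with library totals and 0.64 with receptor genes. At an unadjusted p under 0.05, library totals gave 375 genes higher and 1704 lower, and receptor genes gave 2056 higher and 141 lower. Relative to these medians the log2 fold change of Emb was -1.28, -1.37 and -1.24, that of Slc16a7 was 1.11, 1.13 and 1.16, and that of Slc16a13 was -1.66, -1.49 and -1.80.

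**Figure D2:**
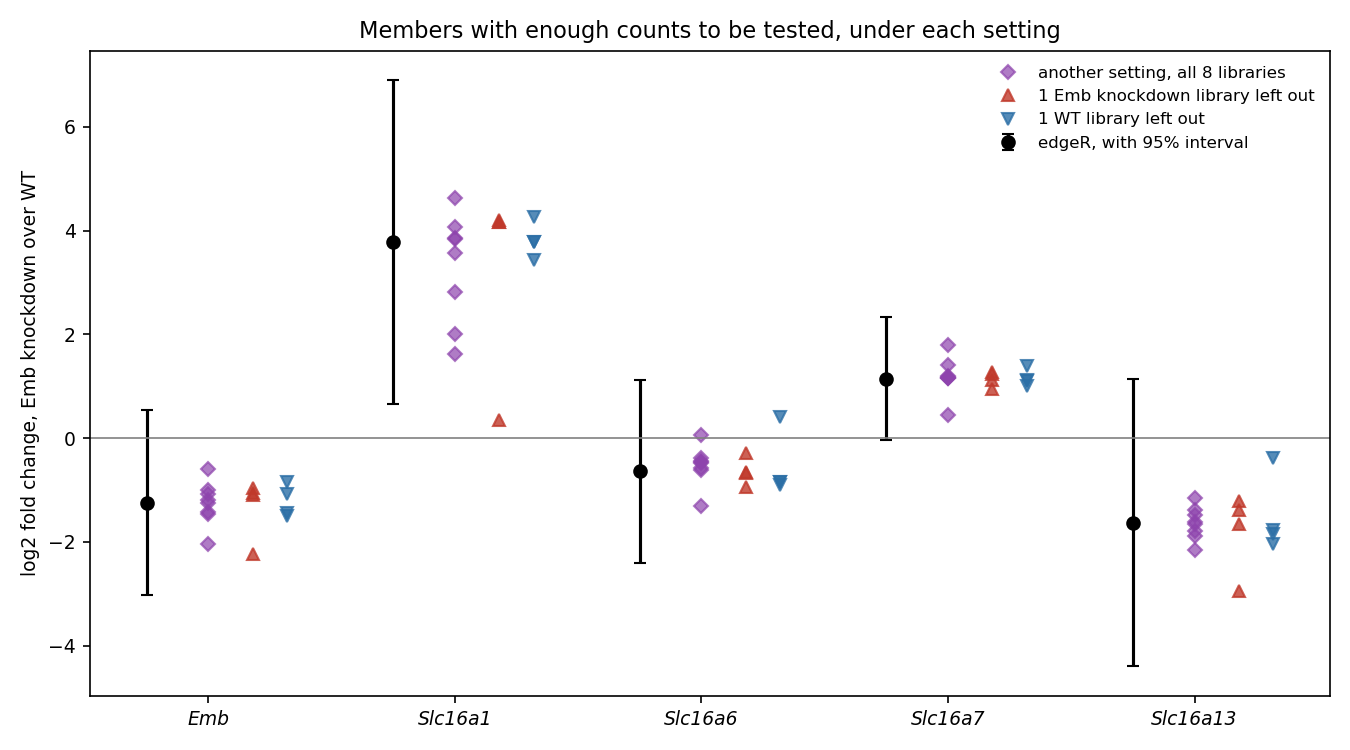
Log2 fold change of Emb knockdown over WT (vertical axis) for the 5 members with enough counts to be tested; black points with bars are the edgeR estimate and its 95% interval, diamonds are 8 other settings on all libraries, and triangles are fits with 1 library left out. The Slc16a1 estimate falls to 0.34 in the fit that leaves out Emb knockdown replicate 1, and Slc16a6 changes sign without WT replicate 1 and with receptor scaling.

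Compared per length, the 8 genes took a different order in the genotypes, but no neighbours in either order stood apart. By mean TMM CPM per exonic kilobase the Emb knockdown libraries ran from Slc16a1 (32.9 ± 59.8) and Bsg (6.54 ± 10.1) through Slc16a7 (3.63 ± 0.992), Slc16a13 (2.77 ± 3.45), Slc16a6 (2.24 ± 1.25), Slc16a3 (1.83 ± 2.26) and Nptn (1.52 ± 0.921) to Emb (0.772 ± 0.772). The WT libraries ran from Slc16a13 (8.61 ± 10.5) and Bsg (7.03 ± 6.87) through Slc16a6 (3.49 ± 3.65), Slc16a1 (2.41 ± 1.61), Emb (1.86 ± 1.19), Slc16a7 (1.64 ± 0.529) and Slc16a3 (1.48 ± 0.836) to Nptn (1.34 ± 1.99) (SD, n = 4). The ranges over libraries overlapped for each pair of neighbours, so neither order is firm. The length taken for a gene mattered too: per kilobase of the longest coding transcript, chosen after seeing the data, Nptn moved up to place 3 in Emb knockdown (6.73) and in WT (5.96).

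Several of these transcripts lay near the level of genes whose known use is in the sensory neurons of the nose. A total of 1470 protein-coding olfactory, vomeronasal and trace amine receptor genes gave that level, as counts per exonic kilobase in the same library. Emb lay at 0.190 to 2.00 times it in Emb knockdown and 0.436 to 2.15 times in WT, at or under it in 3 and 2 libraries. Nptn was at or under it in 1 and 3 libraries, and Slc16a3 in 2 and 3. Bsg reached 25.5 times in Emb knockdown and 9.01 times in WT, and Slc16a13 reached 6.22 and 16.2 times, each with other libraries of the same genotype at or under 1. With the longest coding transcript as the length, the libraries at or under the background numbered 1 of 8 for Emb and 1 of 8 for Nptn, so for these genes the reading depends on the length. The receptor genes took 0.259% to 0.611% of all counts in Emb knockdown and 0.818% to 1.14% in WT. Multiples of this background are therefore raised in Emb knockdown against WT for genes at large, and compare genes within a library better than genotypes.

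**Figure D3:**
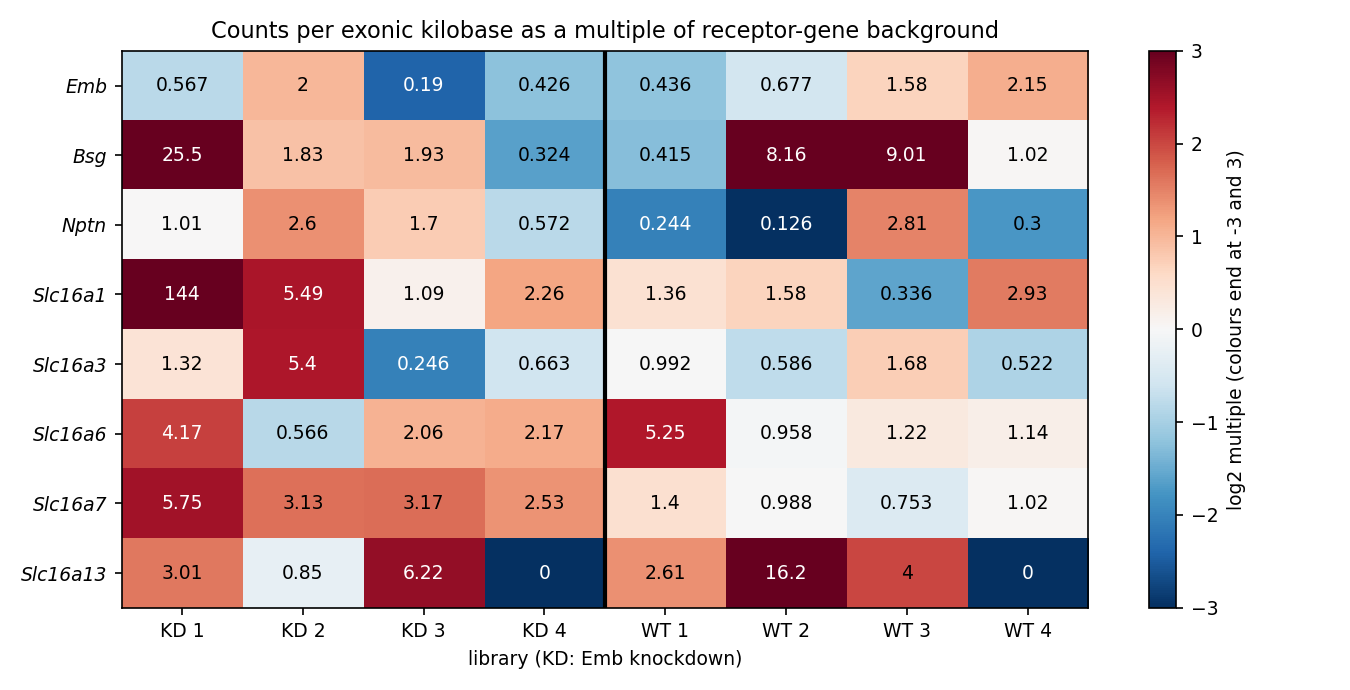
Counts per exonic kilobase of each gene in each library, divided by those of 1470 receptor genes in that library; columns are libraries (KD is Emb knockdown, left of the line), numbers are the multiples and colours their log2. Slc16a7 is above 2.5 times in all 4 Emb knockdown libraries and at most 1.40 times in WT. Receptor genes took a smaller share of the counts in Emb knockdown than in WT, which raises the multiples there for genes at large. Emb is at or under 1 in 5 of 8 libraries.

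Within a library, which member led its set changed from tube to tube. These shares do not depend on the scaling between libraries. Among the 3 chaperones, on counts per exonic kilobase, Emb made up 2.10%, 31.1%, 4.97% and 32.2% in Emb knockdown and 39.8%, 7.55%, 11.8% and 61.9% in WT. The groups overlapped, so the balance of Emb against its relatives did not separate the genotypes. The 3 genes together held only 72, 60, 35 and 12 counts in Emb knockdown and 7, 26, 90 and 20 in WT; as a share of raw counts Emb had 6.94% in Emb knockdown replicate 1 (exact 95% interval 2.29% to 15.5%) and 80.0% in WT replicate 4 (56.3% to 94.3%). Among the 5 transporters, Slc16a1, Slc16a1, Slc16a13 and Slc16a7 led in Emb knockdown replicates 1 to 4 and Slc16a6, Slc16a13, Slc16a13 and Slc16a1 in WT replicates 1 to 4.

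**Figure D4:**
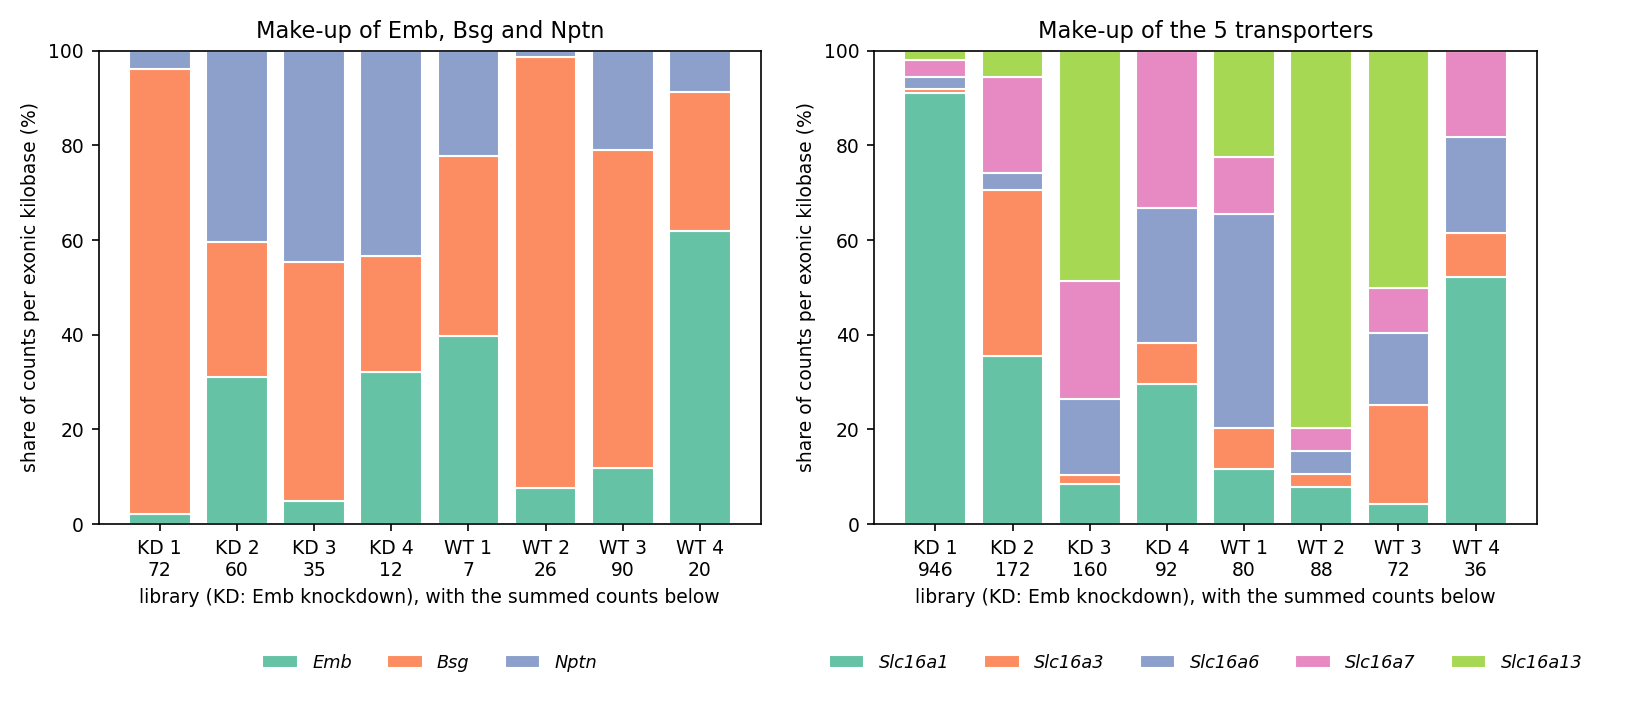
Share of each gene in the summed counts per exonic kilobase of the 3 chaperones (left) and of the 5 transporters (right), in percent, by library (KD is Emb knockdown), with the summed raw counts under each bar. Bsg takes 94.1% of the chaperone bar in Emb knockdown replicate 1, and Slc16a1 takes 91.0% of the transporter bar there.

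The 8 genes differed in how much they varied between libraries of a genotype. The coefficient of variation of TMM CPM was 27.3% in Emb knockdown and 32.3% in WT for Slc16a7, the lowest of the 8 in each genotype. For Emb it was 99.996% and 64.1%, and for Slc16a1 it was 182% and 66.8%. Counting error alone, at the mean count of each group, would give 11.7% and 24.3% for Slc16a7. For Emb that floor was 32.4% and 28.9%, and for Slc16a1 6.72% and 34.3%. The order of the genes was not adjusted for this floor, which falls as counts rise. The counting intervals and limits given above cover counting error only, since copies made by amplification were not told apart.

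Other genes of lactate handling showed no call either. Of the 11 other SLC16 and sodium-coupled monocarboxylate transporters 5 were tested and 0 passed; their median log2 fold change was 0.61, against 0.04 for all genes. The smallest p among them belonged to Slc5a8, a sodium-coupled carrier of short-chain fatty acids and lactate (9.58 ± 5.71 TMM CPM in Emb knockdown and 4.98 ± 2.61 in WT; edgeR adjusted p = 0.609). Slc16a5 and Slc16a10, an aromatic amino acid transporter, had log2 fold changes of 0.64 and 0.49. Of 21 enzymes and carriers of lactate, pyruvate and protons 11 were tested and 0 passed, with 4 higher, 7 lower and a median of -0.13.

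The named members of that second list were of different kinds. Pdhb, a subunit of pyruvate dehydrogenase, had 13.3 ± 6.71 TMM CPM in Emb knockdown and 2.62 ± 3.02 in WT (log2 fold change 2.24 ± 0.98, edgeR adjusted p = 0.361), and Pdha1, its catalytic partner, 19.3 ± 8.80 and 11.3 ± 7.83 (0.77 ± 0.74). Car2, a carbonic anhydrase, had 56.1 ± 14.1 and 24.9 ± 16.4 TMM CPM (1.17 ± 0.69). None of these 3 passed the adjusted p. Ldha, the muscle-type lactate dehydrogenase subunit, chosen after its value was seen, averaged 11.8 ± 11.1 TMM CPM in Emb knockdown and 21.3 ± 14.1 in WT (log2 fold change -0.85 ± 1.00, edgeR adjusted p = 0.753).

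Of 16 genes reported to bind basigin or neuroplastin 13 were tested and 0 passed, with 5 higher, 8 lower and a median of -0.01. Slc7a5, the amino acid transporter that basigin accompanies, had 84.1 ± 33.3 TMM CPM in Emb knockdown and 13.4 ± 8.496 in WT (log2 fold change 2.66 ± 0.74, edgeR adjusted p = 0.294), with all 4 Emb knockdown libraries above all 4 WT libraries. Atp2b2, a calcium pump that pairs with neuroplastin, had 337 ± 62.9 and 1029 ± 273 TMM CPM (-1.61 ± 0.61, edgeR adjusted p = 0.320), with all 4 Emb knockdown libraries below all 4 WT libraries. Traf6, a signalling adaptor with 389 of its 447 WT counts in WT replicate 2, had a log2 fold change of -2.85 ± 1.24. Fgfr1, a growth factor receptor with 321 of its 504 Emb knockdown counts in replicate 3, had 1.71 ± 0.78. The groups overlapped in Traf6 and in Fgfr1. These 4 had the smallest unadjusted p of their list.

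The genes most like Emb and Slc16a1 across the 8 libraries were taken from 10183 genes by Pearson correlation of log2 CPM. For Emb they were Map3k10 (r = 0.950), Xrcc2 (0.936) and Fads3 (0.935), and without WT replicate 4 the values were 0.927, 0.923 and 0.928. For Slc16a1 they were Rap1b (r = 0.994), Fkbp4 (0.984) and Slc39a1 (0.981), and without Emb knockdown replicate 1 they were 0.963, 0.962 and 0.867. With so many genes and 8 libraries, values of this size describe the libraries only. Bsg was not in the fit and was not compared.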

How the data were processed

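The authors deposited raw counts, as integers, of 55414 genes in each of the 8 libraries. The submitters' processing notes name cutadapt (an adapter trimmer) and the build mm10; aligner, counting tool, strand setting and annotation release: not given in the sources used here. Members and gene lists were chosen with earlier results of these data known. Positions, exon lengths and transcripts came from GENCODE M21 (GRCm38, the assembly that mm10 names), which held 52133 of the 55414 identifiers; similar transcripts were sought with BLAST at 95% identity over at least 100 bases.

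All genes were fitted with edgeR 4.0.16 in R 4.3.3: filterByExpr defaults (minimum count 10, minimum total 15), TMM factors, a robust quasi-likelihood test with genotype as the only term, and Benjamini-Hochberg adjustment over 11353 genes with a threshold of 0.05. The SE is the size of the log2 fold change over the square root of F; log2 CPM had a prior count of 2. Single values were compared by exact permutation over 70 assignments. Genes named from each list had the smallest unadjusted p (up to 4) or, for cell types, the highest level (up to 3); some named genes are not reported here. DESeq2 1.42.0 and limma 3.58.1 were alternatives. The script was tested on simulated data. Total counts of 698930 to 2712754 per library leave single members with 0 to 814 counts.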

Additional observations from a re-analysis of the deposited data

Results flagged for a closer look

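In groups of 4 libraries, a value was marked when its gap to the nearest other value exceeded Dixon's 95% critical value, as a part of the group's range. For normally distributed values this holds for about 5% of groups. The TMM CPM values were not put on a log scale and their distribution was not checked, so that rate may not apply here. Of the 16 groups of the 8 genes 6 were marked, each by its highest library. In Emb knockdown these were Emb in replicate 2 (13.3 TMM CPM, next 3.33), Bsg in replicate 1 (39.3, next 4.32), Slc16a1 in replicate 1 (542, next 23.3) and Slc16a3 in replicate 2 (27.6, next 6.00). In WT these were Nptn in replicate 3 (26.6, next 2.81) and Slc16a6 in replicate 1 (43.7, next 9.13). The marked libraries were replicates 1 and 2 of Emb knockdown and replicates 1 and 3 of WT, so no single library accounts for all of them.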

How the results depend on the processing

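Genes called over the whole table numbered 0 in 13 of 18 alternatives and 2 with library totals alone. By the DESeq2 Wald test they were 401 of 47226 genes with a p-value (341 higher, 60 lower in Emb knockdown). With no filter they were 910 of 48530, and 540 of 47964 when Emb knockdown replicate 1 was also left out. These totals are larger than the 11353 genes of the filtered fit. With the filter kept, leaving out 1 library gave 0 to 1. Of the 8 genes 0 were called in 17 alternatives and 1, Slc16a1, with no filter; leaving out 1 library gave 0 to 0. Emb ranged from -2.23 to -0.85 when 1 library was left out. Slc16a6 turned to 0.0552 when scaled to receptor genes and ran from -0.94 to 0.41 when 1 library was left out, 0.41 being without WT replicate 1. DESeq2 gave an adjusted p only for Slc16a7 among the 8 (0.261). Slc16a1 ran from 0.34 to 4.62, Slc16a7 from 0.46 to 1.805 and Slc16a13 from -2.94 to -0.38; the causes were not tested. The fit with no filter, without Emb knockdown replicate 1, and the coding transcript length were chosen after seeing the data. Same-numbered libraries did not deviate together (correlations 0.0113 to 0.0337, none over 0.1), and not every library was closest to its own number; with the replicate block 0 genes and 0 of the 8 were called, 918 genes against 1508 had an unadjusted p under 0.05, Emb stood at -1.46, Slc16a1 at 1.62, Slc16a6 at -0.45, Slc16a7 at 1.16 and Slc16a13 at -1.49. The genes other than Slc16a1 and Slc16a7 had 32 to 84 counts per group.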

Other observations

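Several transcripts of proteins that bind basigin or neuroplastin were far more abundant than Bsg and Nptn themselves; they are named here after their values were seen. Mmp14, a membrane-bound matrix metalloproteinase, averaged 3804 ± 2275 TMM CPM in Emb knockdown and 1709 ± 1098 in WT (log2 fold change 1.15 ± 0.69, edgeR adjusted p = 0.486). Cd44, a hyaluronan receptor, averaged 765 ± 370 and 517 ± 349, and the calcium pump Atp2b1 averaged 1015 ± 911 and 1022 ± 558. These 3 lay at 19.8 times the receptor-gene background or more in every library, unlike any of the 8 genes described above.

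Some other carriers of the SLC16 family were also concentrated in single libraries, as raw counts. Slc16a10 had 99 of its 118 Emb knockdown counts in replicate 3, and Slc16a8 had 35 of 61 in Emb knockdown replicate 4 and 17 of 20 WT counts in WT replicate 4. No cause was tested.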
